A study of Drosophila melanogaster with 3 samples.

Results

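The regions described here are 3313 weak but reproducible sites from a chromatin immunoprecipitation and sequencing (ChIP-seq) study of the Drosophila melanogaster protein CG15514. The flies were a transgenic line that stably expressed CG15514 with GFP at its C-terminal end. Chromatin of mixed-sex whole embryos aged 0 to 24 hours was recovered with an antibody against GFP, in 3 biological replicates that form 1 group, and all 3 carried the tagged protein. The embryos were whole organisms, so sites of different tissues and stages are averaged within each replicate, and the levels of the tagged and the native protein were not measured. The files list at most 30000 intervals each, called in every replicate and in the 3 replicates pooled, together with a shorter list that the authors kept after filtering by irreproducible discovery rate (IDR).

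The members were selected on measured values: they are entries of the pooled list on genome build dm6 that the IDR-thresholded list leaves out, and whose summit lies within 100 bp of a summit in each of the 3 replicate lists. Of 30000 pooled entries, 21292 were below the threshold, and 3313 of these, 15.6%, met the rule. The same support was found for 7591 thresholded peaks, 87.2% of that list. Because the rule used the summits of all 3 replicates, agreement between replicates is a description of the members and not a finding. There was no group without the tag among the lists used here, and the shares below are given without a test. Their intervals are exact Clopper-Pearson intervals of 95% and cover counting error over entries only. The entries are not replicates: all come from the same 3 embryo samples.

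In ChIP-seq, DNA bound to a protein is recovered with an antibody, and a summit is the position where recovered fragments pile up most. IDR compares the ranks of peaks between replicates and keeps those down to the rank at which the order stops being reproducible, so a site can recur in every replicate and still fall below the threshold. Many strong ChIP sites in fly embryos lie at promoters of broadly expressed genes, which often carry the DNA replication-related element (DRE), bound by Dref and overlapping the sites of BEAF-32, or Ohler motif 1, bound by M1BP.

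Members that hold a core promoter motif are shown to let the DNA of a weak promoter site be read. They are the members of highest pooled signal with each motif, outside the 1 chromosome arm that is not printed. The letters are from the RefSeq Release 6 genome, which is dm6, on the plus strand, and capitals mark the motif. The DRE (TATCGATA) was at the promoters of Rcc1, the nucleotide exchange factor of the Ran GTPase, at chr3L:5932838-5932905, and of kin17 at chr3L:20356760-20356787. Ohler motif 1 (GGTCACAC) was at the promoter of kin17 at chr3L:20356712-20356779, with the DRE in lower case near the end of the stretch, and at the promoter of CG5445 at chrX:17302484-17302511.
Rcc1, DRE: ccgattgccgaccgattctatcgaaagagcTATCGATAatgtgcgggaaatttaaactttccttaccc
kin17, DRE: cagcagtaacTATCGATAaaagtgttca
kin17, Ohler motif 1: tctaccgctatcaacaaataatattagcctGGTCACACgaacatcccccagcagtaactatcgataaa
CG5445, Ohler motif 1: agaatcgcctGGTCACACcgcagggtcc

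Away from promoters, the 7-letter motif GAACCAG or GAACTAG and the core letters of the CTCF site (AGNNGGCGC) were found in introns. The motif lay in introns of Rim, which encodes a presynaptic active zone protein, at chr3R:17897050-17897116 and of CG32638 at chrX:13125031-13125097. The CTCF letters, read on the minus strand, lay in introns of schlank, the fly ceramide synthase, at chrX:6263951-6264019 and of CG4393 at chr3R:23383836-23383904. The intron of pb (proboscipedia), a Hox gene, held the intronic member with the best ranks over the replicates, and all 201 bases around its summit are shown, from chr3R:6708965-6709165. Capitals there mark CGATA, the core of the BEAF-32 site, and Ohler motif 7, both on the minus strand.
Rim: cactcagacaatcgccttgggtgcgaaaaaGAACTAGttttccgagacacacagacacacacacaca
CG32638: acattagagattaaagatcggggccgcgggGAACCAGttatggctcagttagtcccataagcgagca
schlank: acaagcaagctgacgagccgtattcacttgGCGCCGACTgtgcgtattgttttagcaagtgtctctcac
CG4393: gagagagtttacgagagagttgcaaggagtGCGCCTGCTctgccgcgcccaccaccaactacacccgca
pb: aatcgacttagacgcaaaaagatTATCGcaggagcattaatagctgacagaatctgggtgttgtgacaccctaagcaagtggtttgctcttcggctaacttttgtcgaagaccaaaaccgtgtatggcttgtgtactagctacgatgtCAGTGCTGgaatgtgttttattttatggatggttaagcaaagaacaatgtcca

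Support in the replicate lists thinned out with pooled rank. Of the strongest 1000 pooled entries, 99.1% had a summit in all 3 replicate lists. This share was 73.8% among the 1000 entries that end at rank 8000, 66.2% in the next 1000, which hold the end of the thresholded list, and 55.3% in the 1000 that end at rank 10000. It was 43.7% in the 1000 entries ending at rank 12000, 19.7% in those ending at rank 16000, 6.8% in those ending at rank 20000 and 0.3% in those ending at rank 30000. The members therefore lie mostly just below the threshold: 1689 of the 3313 had a pooled rank of 12000 or better, and 133 had a rank past 20000. Windows of 100 bp on either side of the summits covered 4.50% of the 6 chromosome arms in each replicate.

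**Figure D1:**
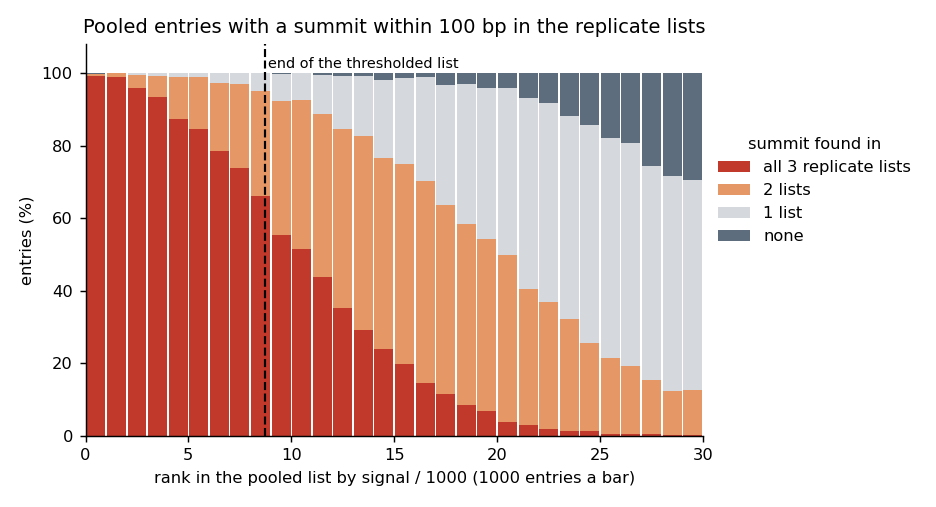
Each bar is 1000 entries of the pooled list in order of signal (x axis, rank divided by 1000), divided by the number of replicate lists with a summit within 100 bp (y axis, percent). The red part, support in all 3 lists, shrinks from 99.1% to 0.3%. The dashed line marks the end of the thresholded list, between 66.2% in the bar that holds it and 55.3% in the next. Red to the right of that line is the set of 3313 members.

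Most entries below the threshold missed the rule by a replicate or more. A summit was found in 2 lists for 8010 of the 21292 entries, in 1 list for 8136 and in none for 1833. Replicate 3 gave a summit for 14603 of them (68.6%), replicate 2 for 10182 (47.8%) and replicate 1 for 9310 (43.7%). Accordingly, 3685 entries missed only replicate 1, 2963 missed only replicate 2 and 1362 missed only replicate 3. Asking for support in the other replicates only, the set would have 6998 entries without replicate 1, 6276 without replicate 2 and 4675 without replicate 3. Replicate 3 was also the closest to the pooled list in position: the median distance of a member's summit to the nearest replicate summit was 9 bp in replicate 3, against 24 bp in replicates 1 and 2. The signal values reached 35891 in replicate 3, 17539.1 in replicate 1 and 17285.4 in replicate 2, but the lists have no common scale and no read counts, so the depth of each replicate is unknown. Whether depth sets these differences in support was not tested.

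In signal, the members lay between the other entries below the threshold and the thresholded peaks, as the choice by pooled rank and support implies. Their pooled signal was between 35.6 and 118.9 with a median of 84.6, whereas the median was 48.5 among the 17979 other entries and 236.4 among thresholded peaks. Their pooled −log10 q ran from 0.141 to 2.26 with a median of 1.18. A q of 0.05 or lower was reached by 1378 members (41.6%), by 1190 other entries (6.62%) and by every thresholded peak. Nearly all member intervals, 3307 of 3313, had the same width of 424 bp.

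The threshold itself separated entries of almost equal signal. Just outside it, the members of highest signal were an intergenic summit 12723 bp from the nearest TSS, that of tRNA:Ile-TAT-1-2 (118.912), and summits in an intron of sm, an hnRNP L-type RNA-binding protein (118.882), at the promoter of prage (118.878), at the promoter of osa (118.837) and at the promoter of tfc (118.836). Next came the promoter of CG13947, an intergenic site nearest to tRNA:Met-CAT-1-5 and introns of Rchy1, CG17646 and CG31612, all between 118.708 and 118.774. Just inside, the thresholded entries of lowest signal were at the promoter of CrebB (118.949), the fly CREB factor, at the shared promoter of qkr58E-2 and qkr58E-1 (118.960) and in introns of atos (118.965), sbm (118.971) and chn (118.977). The osa member, at chr3R:17718419-17718842, had ranks 7924, 10759 and 7656 in replicates 1, 2 and 3. The thresholded CrebB summit had ranks 9912, 3616 and 19072. The osa member thus had the better rank of the pair in replicates 1 and 3, and the CrebB entry in replicate 2.

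The rank of a member differed widely between replicates. The median rank of the matching replicate entry was 14376 in replicate 1, 14147 in replicate 2 and 13959 in replicate 3, against a median pooled rank of 11934. Over the 3313 members, Spearman's rho between ranks was 0.164 for replicates 1 and 2, 0.154 for replicates 1 and 3 and 0.207 for replicates 2 and 3. Between the pooled rank and the replicate rank it was 0.433 for replicate 1, 0.501 for replicate 2 and 0.768 for replicate 3. The points of these correlations share their samples, the pooled list is made from the same reads, and the rule cut off both ends of the range.

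**Figure D2:**
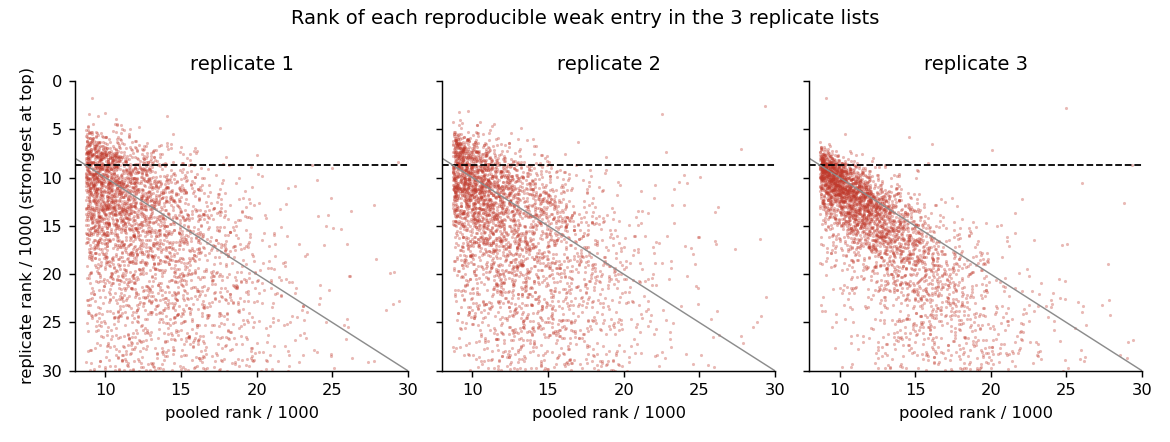
Each point is a reproducible weak entry, with its rank in the pooled list on the x axis and the rank of the matching summit in replicate 1, 2 or 3 on the y axis, both divided by 1000, with the strongest replicate entries at the top. The grey line marks equal ranks and the dashed line the length of the thresholded list. The cloud is tight in replicate 3 (rho 0.768) and wide in replicates 1 and 2 (rho 0.433 and 0.501), and 423, 405 and 180 points lie above the dashed line in replicates 1, 2 and 3.

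Few members were strong in more than 1 replicate, which the choice of entries below the pooled threshold favours. The same counts were not made for the other sets, so they describe the members only. When each replicate list was taken to as many strongest entries as there are thresholded peaks, 423 members were in it for replicate 1, 405 for replicate 2 and 180 for replicate 3. Taken over the lists, 2426 members were in none of the 3 top lists, 770 were in 1, 113 in 2 and 4 in all 3.

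The 10 members with the best ranks over all 3 replicates were at promoters, in introns and between genes. The best was an intergenic summit nearest to lncRNA:CR45695 at chr2L:1638601-1638982, with ranks 1759, 3181 and 1752 in replicates 1, 2 and 3 and a pooled rank of 9111. It lay 221 bp from a thresholded summit, so it is a neighbour of a stronger site. The intron of pb (FBgn0051481) followed, with ranks 7888, 6805 and 8167 and a pooled rank of 8864. The promoter shared by CG1265 and ago, which encodes an F-box protein of a ubiquitin ligase, had ranks 8647, 6512 and 8548. Good ranks in every replicate follow from the choice of these members by their worst rank.

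Other members in the 10 best were at the promoters of miple2, a midkine-type growth factor gene (ranks 8737, 7315 and 8687), and of Ace, the acetylcholinesterase gene (7637, 6901 and 8848). An intronic summit in ttv, which encodes a heparan sulfate polymerase, and LamC, the lamin C gene that overlaps it, had ranks 7555, 6656 and 8715. An intronic summit in Srpk79D, an SR protein kinase gene, had ranks 6571, 8444 and 8910. Their pooled signals were 115.9 at miple2, 112.5 at Ace, 112.7 at ttv and LamC and 117.2 at Srpk79D, all close below the lowest thresholded signal.

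A further 3 of the 10 best, besides lncRNA:CR45695, lay within 500 bp of a thresholded summit. They were an intergenic summit nearest to CG13321 (209 bp away), the promoter of CG1486 and Dd (207 bp) and the promoter of Gprk2, a G protein-coupled receptor kinase gene, and PNPase (298 bp). The CG13321 summit had ranks 8427, 2587 and 8697 in the replicates and 29333 of 30000 in the pooled list, where its signal was 35.6. The CG1486 and Dd summit had ranks 5281, 8735 and 7252 and a pooled rank of 10680. The Gprk2 and PNPase summit had ranks 9014, 5667 and 5530 and a pooled rank of 10344. The rule that named these members selects for high ranks in every replicate.

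Close neighbours of thresholded peaks were a small share of the members. A thresholded summit was within 500 bp for 254 members (7.67%) and for 1248 other entries (6.94%), and within 2000 bp for 1216 members (36.7%) and 5715 other entries (31.8%). No member and no other entry was closer than 199 bp. The median distance to the nearest thresholded summit was 3326 bp for members and 4275 bp for other entries. Another member was within 500 bp for 78 members (2.35%). In the other sets, both larger, a neighbour of the same set was that near for 20.3% of other entries and 13.2% of thresholded peaks. A matching replicate summit was also within 100 bp of another pooled summit for 1 member in replicate 1, 1 in replicate 2 and 0 in replicate 3.

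At the lower end of signal, the members were an intergenic summit nearest to lncRNA:CR44934 (36.2), summits in introns of RhoGAP19D (36.0) and of IA-2, a dense-core vesicle protein gene (35.9), and intergenic summits nearest to CG13321 (35.6) and jb (35.6). Apart from the summit nearest to CG13321, their replicate ranks lay between 12596 and 28659, so they recurred as weak entries of each replicate list.

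Members were at promoters less often than thresholded peaks and more often than other entries below the threshold. A promoter was taken as 500 bp on either side of an annotated transcription start site (TSS) in Ensembl release 115. Promoters held 1022 members (30.8%, interval 29.3 to 32.5), 4087 other entries (22.7%, interval 22.1 to 23.4) and 5510 thresholded peaks (63.3%, interval 62.3 to 64.3). The median distance from a summit to the nearest TSS was 1515 bp for members, 1973 bp for other entries and 168 bp for thresholded peaks. More than 2000 bp from any TSS were 43.7% of members, 49.7% of other entries and 19.9% of thresholded peaks.

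Introns held the largest class of members, 1490 summits (45.0%), against 45.7% of other entries and 25.2% of thresholded peaks. Intergenic sequence held 605 members (18.3%), 22.0% of other entries and 8.68% of thresholded peaks. Coding exons held 81 members (2.44%), 5.02% of other entries and 0.505% of thresholded peaks. Summits in a 3' UTR were 61 (1.84%), 447 (2.49%) and 100 (1.15%) in members, other entries and thresholded peaks, and those in a 5' UTR were 26 (0.785%), 186 (1.03%) and 53 (0.609%). Over all ranks, the members lay between the other entries and the thresholded peaks in each of these classes. Between the end of the thresholded list and rank 12000, the order of members and other entries was not the same. Introns there held 43.7% of members and 39.6% of other entries, and intergenic sequence 16.9% and 13.8%. Coding exons held 1.42% of members and 1.12% of other entries. The intervals overlapped for each of these classes, so the lower shares of members over all ranks were not seen in this band.

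**Figure D3:**
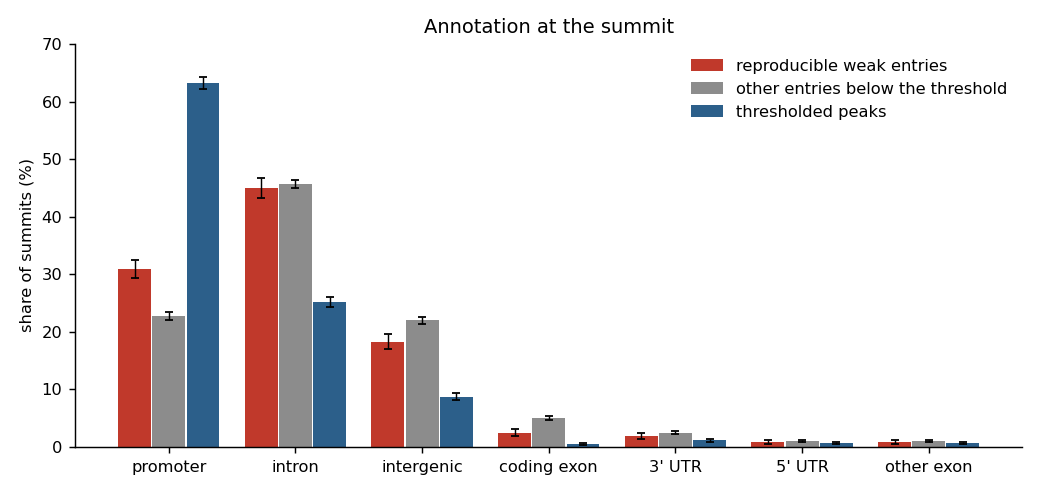
Share of summits in each annotation class (y axis, percent) for the reproducible weak entries, the other entries below the threshold and the thresholded peaks. Error bars are 95% Clopper-Pearson intervals. The red bar at promoters, 30.8%, stands between 22.7% and 63.3%, and introns hold 45.0% of the reproducible weak entries.

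The promoter share differed by pooled rank, and in the bands that hold most members they were not the richer set. Between the end of the thresholded list and rank 12000, 588 of 1689 members (34.8%, interval 32.5 to 37.1) and 669 of 1603 other entries (41.7%, interval 39.3 to 44.2) were at a promoter. Between ranks 12000 and 16000 the shares were 27.6% of 1078 members and 31.2% of 2922 other entries. Between 16000 and 20000 they were 24.9% of 413 members and 23.1% of 3587 other entries, between 20000 and 25000 they were 25.2% of 111 members and 18.2% of 4889 other entries, and past 25000 they were 6 of 22 members and 15.8% of 4978 other entries. The intervals of the 2 sets did not overlap in the band to rank 12000 and overlapped in the other bands. The difference of 8.12 percentage points over all ranks, members above other entries, thus stood beside a difference of −6.92 points in the band that holds most members.

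The direction in that band depended on how a match was defined. With support read from overlap of intervals in place of a summit within 100 bp, the difference in the band was 2.18 points, members above other entries, so the lower share of members holds for the summit rule. With support within 50 bp or 200 bp it was −5.34 and −5.02 points. By number of lists, the promoter share in the band was 40.7% of 1327 entries with a summit in 2 lists and 45.7% of 267 with a summit in 1 list. Of the 669 promoter entries in the band that were not members, 450 (67.3%) had a summit within 300 bp in all 3 lists, as did 560 of 934 (60.0%) outside promoters. Within 200 bp the shares were alike, 297 of 669 (44.4%) at promoters and 417 of 934 (44.6%) outside them. Without entries within 500 bp of a thresholded summit, the shares in the band were 31.9% of 1544 members and 36.2% of 1360 other entries. Entries near a thresholded summit were 8.58% of members and 15.2% of other entries there. The part that such neighbours have in the difference was not tested beyond these values.

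**Figure D4:**
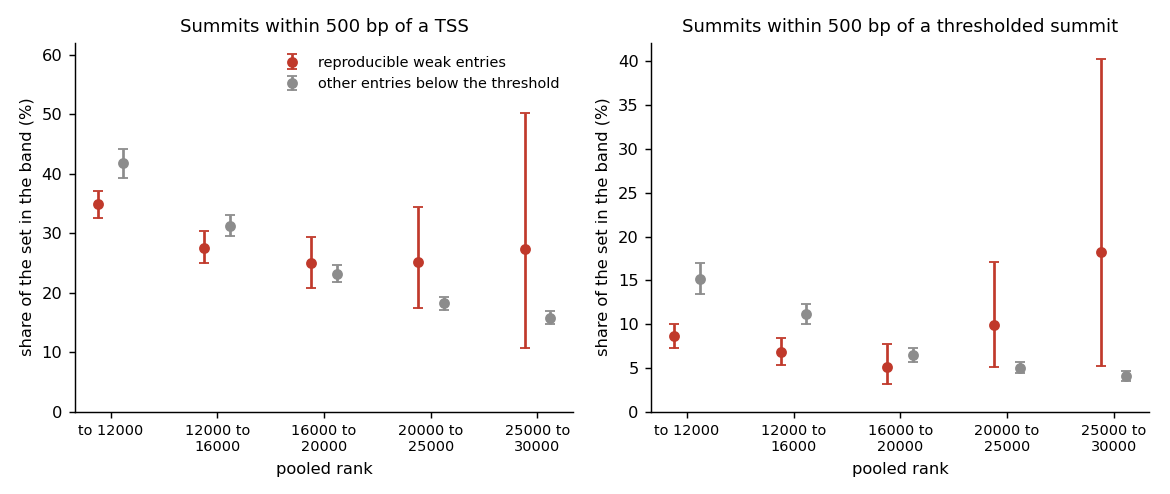
Share of entries within 500 bp of a TSS (left) and of a thresholded summit (right), in percent, for reproducible weak entries and other entries below the threshold in 5 bands of pooled rank (x axis). Points are shares and bars 95% Clopper-Pearson intervals. In the band to rank 12000 the members are lower in both panels, 34.8% against 41.7% and 8.58% against 15.2%.

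Within promoters, members lay near the TSS but less sharply upstream of it than thresholded peaks. The median distance of promoter summits to the TSS was 99.5 bp for members, 152 bp for other entries and 69 bp for thresholded peaks. Summits within 100 bp of a TSS were 50.5% of promoter members (interval 47.4 to 53.6), 38.2% of promoter other entries and 63.9% of promoter thresholded peaks. In the band to rank 12000, they were 53.6% of 588 promoter members and 46.0% of 669 other promoter entries, and between ranks 12000 and 16000 they were 46.5% of 297 and 45.5% of 913. Summits upstream of the nearest TSS were 59.0% of promoter members, 56.1% of other promoter entries and 79.0% of thresholded promoter peaks. In bins of 50 bp, the fullest bin of member summits was centred 25 bp downstream of the TSS, with 170, followed by 150 in the bin centred 25 bp upstream. A promoter with TSSs of more than 1 gene was the place of 15.9% of promoter members, 15.9% of other promoter entries and 36.9% of thresholded promoter peaks.

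**Figure D5:**
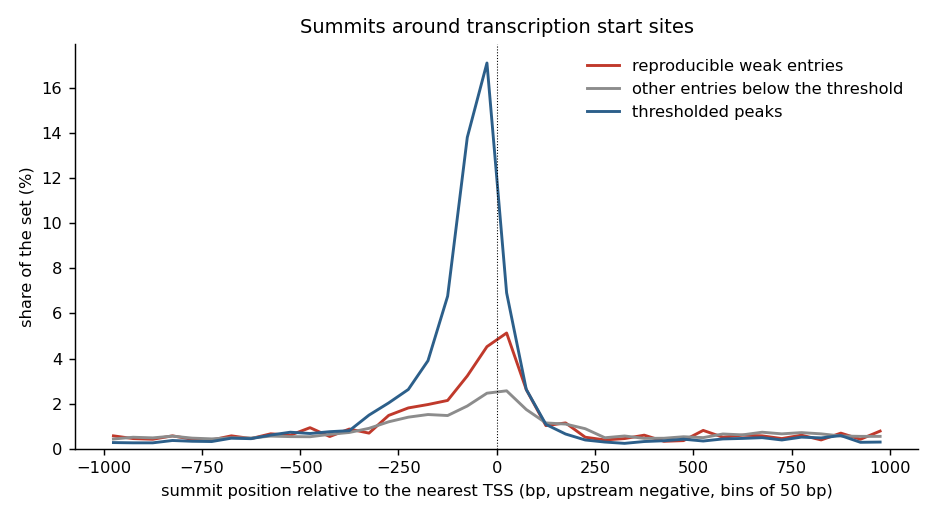
Position of summits relative to the nearest TSS in bins of 50 bp (x axis, upstream negative) as a share of each set (y axis, percent). The reproducible weak entries peak at 5.13% in the bin just downstream of the TSS, while the thresholded peaks peak just upstream.

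The DRE and Ohler motif 1 were less common at members than at thresholded peaks and more common than at other entries. Motifs were sought as exact letters in 201 bases centred on the summit, on both strands, so CGATA also counts every DRE, whose letters contain it. The DRE (TATCGATA) was found at 61 members (1.84%, interval 1.41 to 2.36), 0.729% of other entries and 7.54% of thresholded peaks. Ohler motif 1 (GGTCACAC) was found at 55 members (1.66%, interval 1.25 to 2.16), 0.690% of other entries and 6.28% of thresholded peaks. For comparison, windows of the same length at 19252 annotated TSSs of protein-coding genes held the DRE in 6.45% and Ohler motif 1 in 5.68%. At promoters alone, the DRE was at 4.79% of members, 2.13% of other entries and 11.4% of thresholded peaks, and Ohler motif 1 at 4.50%, 1.76% and 9.60% of the same sets.

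In the band of pooled rank that holds most members, the motif shares of members and other entries had overlapping intervals. In the band to rank 12000, promoter members held the DRE in 4.93% (29 of 588, interval 3.33 to 7.01) and other promoter entries in 3.74% (25 of 669, interval 2.43 to 5.47). Ohler motif 1 was in 5.44% of these members (interval 3.75 to 7.60) and in 4.19% of the other entries (interval 2.80 to 5.99). Ohler motif 7, one of the letters CAGCNCTA, CAGCNCTG, CATCNCTA or CATCNCTG, was in 12.2% of these members and in 11.5% of the other entries. All 3 pairs of intervals overlapped. Between ranks 12000 and 16000, promoter members held the DRE in 5.05% (interval 2.85 to 8.19) and other promoter entries in 3.18% (interval 2.14 to 4.53), and Ohler motif 1 in 3.70% (interval 1.86 to 6.53) and 1.86% (interval 1.09 to 2.96). Over all classes between ranks 20000 and 25000, the DRE was at 3 of 111 members (2.70%, interval 0.561 to 7.70). Among other entries there it was at 17 of 4889 (0.348%, interval 0.203 to 0.556). These intervals only just missed each other, and the member share rests on 3 entries. Ohler motif 1 went the other way in this band, at 0 of 111 members and 19 of 4889 other entries (0.389%). The classes were not alike either, as promoters held 25.2% of members and 18.2% of other entries there.

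Most members with GAACCAG or GAACTAG lay away from promoters, as did most members of any kind (2291 of 3313). The same was true of the other entries with these letters, 424 of 558. This motif was found in an earlier look at the strongest peaks of these data, so its share at thresholded peaks is not independent of them. The motif was at 119 members (3.59%), 3.10% of other entries and 6.47% of thresholded peaks, against 3.62% of TSS windows. Of the 119 members, 92 lay outside promoters, which is 4.02% of the 2291 members there, against 3.05% of other entries and 6.32% of thresholded peaks. At promoters it was at 2.64% of members, 3.28% of other entries and 6.55% of thresholded peaks. In the band to rank 12000 and outside promoters, the shares were 4.09% of members and 4.18% of other entries.

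Insulator letters were also present at members. The CTCF letters (AGNNGGCGC) were at 94 members (2.84%), 2.17% of other entries, 3.36% of thresholded peaks and 1.92% of TSS windows. CGATA was at 24.4% of members, 22.3% of other entries, 37.7% of thresholded peaks and 37.1% of TSS windows. GAGAGAG, the letters of the GAGA factor, was at 4.23%, 4.43%, 4.57% and 4.69% of the same sets, and CAGGTAG, the Zelda motif, was at 0.815%, 0.934%, 0.792% and 1.08%. TATAAA was at 26.3% of members, 22.3% of other entries, 29.7% of thresholded peaks and 26.9% of TSS windows. In the band to rank 12000 and outside promoters, TATAAA was at 28.6% of members and 29.2% of other entries. The CTCF letters were there at 2.63% of members (interval 1.77 to 3.76) and 1.71% of other entries (interval 0.982 to 2.77), and these intervals overlapped.

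Over all classes, the shares of Ohler motifs 5, 6 and 7 at members also lay between those of other entries and thresholded peaks. That of the initiator did not. Ohler motif 7 was at 7.36% of members, 6.34% of other entries and 16.1% of thresholded peaks, Ohler motif 6 (GTATATT or GTATTTT) at 13.9%, 10.7% and 18.6%, and Ohler motif 5 (CAGCTG) at 9.96%, 8.98% and 13.4%. The TSS windows held these motifs in 13.9%, 15.2% and 13.4%. The initiator letters TCAGTC or TCAGTT were at 20.2% of members, 19.1% of other entries, 18.6% of thresholded peaks and 30.6% of TSS windows. GCCAT, the core of the Pho site, was at 31.2% of members, 35.7% of other entries, 28.7% of thresholded peaks and 30.8% of TSS windows. Runs of 8 A were at 12.9%, 11.6%, 11.9% and 10.5% of the same sets, and CACACACA was at 6.88% of members, 7.34% of other entries and 4.32% of thresholded peaks. A match says only that these letters are present in the window.

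The sequence around member summits was rich in A and T, between the other sets. The median GC content over 201 bases was 40.3% for members, 42.8% for other entries and 38.3% for thresholded peaks. In the band to rank 12000 it was 39.3% for members and 40.3% for other entries. Annotated transposable elements held 7 member summits (0.211%).

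Chromosome 4 held almost no members. The X chromosome, 17.6% of the sequence, held 640 members (19.3%, interval 18.0 to 20.7), 17.0% of other entries (interval 16.5 to 17.6) and 18.5% of thresholded peaks. In the band to rank 12000, X held 20.2% of members (interval 18.3 to 22.2) and 17.7% of other entries (interval 15.9 to 19.7). Chromosome 4, which is 1.01% of the sequence and largely heterochromatic, held 1 member, in an intron of zfh2, a zinc finger and homeodomain gene, 13 other entries and 23 thresholded peaks. Arms 2L, 2R, 3L and 3R held 627, 576, 698 and 771 members.

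Few genes had a member and no thresholded peak at a promoter. Of 13945 protein-coding genes, 1012 had a member within 500 bp of a TSS, and 393 of these also had a thresholded summit there. The remaining 619 genes, 4.44% of all, had a member only. A further 1665 genes had neither but had another entry below the threshold, and 5676 had no pooled entry at a promoter. Among 4219 genes that are not protein-coding, 99 (2.35%) had a member and no thresholded summit. The gene groups below are given beside these shares, but only a gene without a thresholded summit can have a member only. Such genes were 7 of 92 in the cytoplasmic ribosomal list, 7 of 37 in the Polycomb and trithorax list and 13 of 44 in the cell cycle list. They were 16 of 25 in the muscle list and 111 of 112 in the cuticle list. Shares over whole lists are therefore not directly comparable. The gene groups were picked with earlier results of these data known, and their counts are descriptions.

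Cell cycle genes gave 5 of 44 with a member only (11.4%), while 31 had a thresholded peak. At Myt1 (FBgn0040298), the kinase gene that restrains Cdk1, the member at chr3L:5779568-5779991 had pooled signal 113.1 and ranks 9867, 9015 and 11515 in replicates 1, 2 and 3. At PCNA (FBgn0005655), the sliding clamp of DNA polymerases, the member at chr2R:20262731-20263154 had signal 103.7 and ranks 7826, 11161 and 11656, with the summit 60 bp from the TSS. At Mcm7 (FBgn0020633), a subunit of the replicative helicase, the signal was 105.5 and the ranks 10737, 28293 and 8138. The other members of the group were at Cdk4 and RnrL. Myt1 and PCNA were of similar rank in each replicate, and Mcm7 was weak in replicate 2.

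Muscle and mesoderm genes gave 4 of 25 with a member only (16%), 9 having a thresholded peak. Act87E and Act57B, both actin genes, had signals of 86.7 and 74.0, with ranks 12703, 19533 and 11526 at Act87E and 12542, 10249 and 20369 at Act57B. At stumps, which encodes an adaptor of fibroblast growth factor receptors, the signal was 85.0 and the ranks 11491, 13657 and 14307. The remaining gene was Mlc1, a myosin light chain gene. With 25 genes the share of 16% rests on 4 promoters, all with signals well under the threshold.

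Chromatin regulators were mostly thresholded, 30 of 37 Polycomb and trithorax genes, and 3 had a member only. They were osa (FBgn0261885), a subunit gene of the SWI/SNF complex, Pcl (FBgn0003044), a Polycomb repressive complex gene, and caly (FBgn0262166), a histone deubiquitinase gene. Their pooled signals were 118.8 at osa, 99.0 at Pcl and 91.8 at caly. The Pcl member had ranks 13693, 14007 and 8551 and the caly member 9731, 20485 and 11537. Among insulator and core promoter factor genes, 20 of 26 had a thresholded peak and mod(mdg4) alone had a member only, with signal 108.2, ranks 11316, 14144 and 11481 and a summit 7 bp from the TSS.

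Developmental regulators had members at a handful of promoters. The neurogenesis list gave pros and insc, 2 of 26 genes. At pros (FBgn0004595), which encodes a homeodomain factor of neural precursors, the member at chr3R:11372319-11372742 had signal 107.4 and ranks 10431, 10533 and 9541, and the nearest thresholded summit was 20471 bp away. At insc, a spindle orientation gene, the signal was 92.9 and the ranks 22227, 15030 and 11893, at a promoter shared with sktl. The 3 replicates ranked the pros member almost alike, while insc was much weaker in replicate 1.

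In the dorsoventral list, rho and spz had a member only, 2 of 30 genes. At rho, which encodes the intramembrane protease that activates EGF receptor ligands, the signal was 86.4 and the ranks 14953, 27827 and 11644. At spz, which encodes the Toll ligand, the signal was 55.6 and the ranks 19100, 13548 and 29694. In the Notch list it was dx, a Notch regulator, with signal 88.7, and Ser, a Notch ligand, with signal 63.0, 2 of 30 genes. In the ecdysone list it was shd, whose enzyme makes the active hormone, with signal 88.5, 1 of 21 genes. None of 12 Hox genes, of 36 segmentation genes, of 115 histone genes or of 19 heat shock protein genes had a promoter member without a thresholded peak, and 2, 11, 4 and 6 of these genes had a thresholded peak.

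Ribosomal protein promoters were nearly all above the threshold, and 2 of 92 had a member only, among 7 without a thresholded peak. At RpL5 (FBgn0064225) the member at chr2L:22536486-22536909 had signal 116.9 and ranks 4719, 22250 and 10268, with the summit 11 bp from the TSS. At RpL40 (FBgn0003941) the signal was 98.3 and the ranks 9885, 9203 and 11128. The mitochondrial ribosomal list gave 3 of 73 (mRpS18C, mRpL30 and mRpL15), and mRpL30 had the most even ranks, 10634, 9911 and 11992. Translation factors gave 4 of 53 (eIF3l, eIF4E6, eEF1beta and eIF3i), with eIF3l the strongest at 118.2, at a promoter shared with Nrx-IV. Proteasome subunits gave 1 of 48, Prosbeta4, at a promoter shared with Nubp1, with signal 78.4.

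Cytoskeleton genes gave 3 of 38, which were Act87E, Act57B and spir, an actin nucleator gene with ranks 26114, 10722 and 13789 and a summit at the TSS itself. Among gene families of low representation in the thresholded list, cytochrome P450 genes gave 8 of 85 with a member only (9.41%), where 10 had a thresholded peak. The strongest was at Cyp310a1, with signal 104.4 and ranks 17354, 7275 and 10662, and a single member lay within 500 bp of the TSSs of both Cyp4d14 and Cyp4d2, with signal 103.5. Cuticle protein genes gave 3 of 112, chemoreceptor genes 3 of 179 and Jonah and trypsin proteases 2 of 27. In the chemoreceptor list, Or94b had signal 94.9 and ranks 12401, 10270 and 12682, 39651 bp from the nearest thresholded summit, while Ir31a shared its promoter with CG17768 and LSm-4.

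Transfer RNA genes gave 15 of 290 with a member only (5.17%), and 34 had a thresholded peak. At tRNA:Ala-AGC-2-1 the member at chr3L:8028610-8029033 had signal 110.4 and ranks 11582, 11367 and 9776. At tRNA:Ile-TAT-1-1 the signal was 106.4 and the ranks 9678, 12683 and 9077, with the summit 34 bp from the gene's start. At tRNA:Ser-GCT-2-2 the signal was 106.2 and the ranks 27345, 8102 and 12217. Transfer RNA genes are short, near-identical copies, and how reads that match several copies were handled is not given in the sources used here. The snRNA list gave 2 of 32 (6.25%), snoRNA genes 2 of 269 and microRNA genes 2 of 260, mir-2491 and mir-92b.

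The 5 members farthest from any TSS were all in introns, and a summit that far inside a gene can only lie in a long one. The farthest was in kek5, which encodes a leucine-rich repeat membrane protein, 56199 bp from the nearest TSS, at chrX:19418652-19419075, with signal 70.1 and ranks 12011, 23988 and 17213. Next were summits in luna, a Krüppel-like factor gene, at 54014 and 49033 bp, in heph, the polypyrimidine tract-binding protein gene, at 50408 bp and in Ten-a, a teneurin gene, at 49094 bp. Each of these 5 had a replicate rank past 17000, and signals ran from 59.7 to 78.6. The gene around an intronic member had a median length of 34.7 kb, against 38.6 kb for other entries and 27.0 kb for thresholded peaks.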

How the data were processed

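The data are anti-GFP ChIP-seq peak lists of 3 replicates in 1 group. The deposited dm6 and dm3 lists are in narrowPeak layout. Per the deposited descriptions, a replicate list was called from its own alignment and a control, the pooled list from all 3 replicates and the control, and the thresholded list by IDR. For the aligner, the peak caller and the IDR cutoff, names, versions and settings were not given in the sources used here. The signal is the authors' peak caller's value against the control, without a scale between lists, so entries were compared by rank within a list. The −log10 q and the summit position are as deposited. The lists hold no read counts, so depth is unknown.

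The 8708 thresholded peaks were the 8708 strongest pooled entries. Annotation was Ensembl 115 (FlyBase 6.54) on 6 chromosome arms, with transposable elements not counted as genes, and a summit in several classes was counted as promoter before UTR, UTR before exon and exon before intron. The 15 motifs were exact matches within 100 bp of the summit. Named members were the 10 of highest and 5 of lowest signal, the 10 with the best worst replicate rank, the 5 farthest from a TSS, up to 3 per list of 25 gene lists and up to 2 per motif. The members and lists were chosen with earlier results of these data known. There was no second group, so no test between conditions was made; the rule and searches were tested on simulated data. Python 3.11.15, numpy 2.4.6, scipy 1.17.1 and matplotlib 3.10.9 were used. Alternatives covered the support distance, each replicate, the list length, overlap, the threshold, promoter and motif windows and the dm3 lists.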

Additional observations from a re-analysis of the deposited data

How the results depend on the processing

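The size of the set followed the rule, and the descriptions of its DNA moved less. Support within 50 bp gave 1662 members, and 335 genes with a member only. Support within 200 bp gave 5753 members, a promoter share of 32.5%, a median TSS distance of 1353 bp, 12.9% within 500 bp of a thresholded summit and 943 genes. Support among the 15000 strongest entries gave 731 members, with 35.4% at promoters, 1193 bp to a TSS, the DRE in 3.15%, Ohler motif 1 in 3.42%, 9.17% near a thresholded summit and 186 genes. Overlap of intervals gave 8805 members, with 33.7% at promoters, 1283 bp, the DRE in 1.37%, 16.6% near a thresholded summit and 1168 genes. It also reversed the promoter difference in the band to rank 12000 to 2.18 points, and the cause was not tested. The difference in that band, with its main value of −6.92 points, was not among the planned main results. A threshold at the middle of the thresholded list, which adds stronger entries by construction, gave 6710 members, 41.2%, 907 bp, the DRE in 3.73%, Ohler motif 1 in 3.07%, 4.02% near a thresholded summit and 2248 genes. Members over 500 bp from a thresholded summit had 28.1% at promoters and 1646 bp to a TSS.

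Window sizes moved shares by construction. Promoters of 250 and 1000 bp held 24.1% and 41.8%. Motif windows of 50 and 200 bp gave 1.15% and 2.78% for the DRE, 1.03% and 2.48% for Ohler motif 1, and 1.96% and 6.91% for GAACCAG or GAACTAG. Distances of 250 and 1000 bp to a thresholded summit gave 6.76% and 19.7%. The same rule on dm3 gave 3865 members.

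Leaving out a replicate (support in the others) gave 4675 to 6998 members, 6998 without replicate 1, 6276 without replicate 2 and 4675 without replicate 3, and 791 to 1136 genes. Promoter shares ran from 28.1% to 29.5%, TSS distances from 1556.5 to 1603 bp, DRE shares from 1.36% to 1.63%, Ohler motif 1 from 1.27% to 1.34%, GAACCAG or GAACTAG from 3.29% to 3.59%, and entries near a thresholded summit from 7.60% to 8.56%. No paired analysis was possible because there was 1 group. Unknown depth and the absence of an untagged list limit what recurrence at low signal shows.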

Other observations

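Some long genes held several members along their bodies; they were chosen after their values were seen. kirre, a gene for a cell adhesion protein of myoblast fusion on X, held 16 members over 394 kb, beside 79 other entries and 17 thresholded peaks. Eip75B, an ecdysone-induced nuclear receptor gene, held 11 members over 114 kb, heph 10 over 169 kb, and Mob2 9 over 39.5 kb, of which 7 lay outside promoters. The density was 0.228 members per kb at Mob2 and 0.0406 at kirre, against 0.0247 over the 6 arms. At Shrm, 6 members stood beside 2 other entries and 3 thresholded peaks, whereas at bun 8 members stood beside 45 other entries and 11 thresholded peaks. In all, 95 of 13945 protein-coding genes held 4 or more members, and the same count was not made for the other sets. Overlapping genes count the same members more than once, as at CG43739 and sky, which have the same coordinates.

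A further 2 motifs had unlike shares at and away from promoters. Of promoter members, 7.05% held GAGAGAG, against 6.70% of other promoter entries and 4.63% of thresholded promoter peaks. Away from promoters the shares were 2.97%, 3.76% and 4.47% of the same sets. The initiator letters were in 26.4% of promoter members, 24.8% of other promoter entries and 19.1% of thresholded promoter peaks, and in 17.4%, 17.4% and 17.9% of the same sets elsewhere.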
